A study of Mus musculus with 4 samples.

Results

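The genes described here build the hair shaft and the sheaths around it. They were taken by name from the gene annotation of the arrays: every gene whose symbol starts with Krtap, and 24 listed keratins, sheath proteins and regulators of the follicle, each read by a probe set with a single gene symbol. In all 66 of 19938 genes met the rule, 44 of them Krtap genes and 22 of the 24 listed; Krt81 and Krt85 were not analysed here. Each of the 66 had 1 probe set.

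Skin of mouse embryos at E16.5 (E, embryonic day) was compared on 4 Affymetrix arrays. Ovol2 BT embryos (2 arrays) carried TRE-Ovol2-Flag, a transgene that a tetracycline transactivator switches on, together with K5-tTA, in which the keratin 5 promoter drives that transactivator in basal keratinocytes and the outer root sheath, so that the transcription factor Ovol2 was overexpressed in the epidermis. Control embryos (2 arrays) carried TRE-Ovol2-Flag alone or were wild type, and no embryo with K5-tTA alone was analysed here. Each array received RNA pooled from 2 mice. Nothing names separate litters for the arrays of a genotype, so p-values measure only the spread between these pools. The labels give the strain as FVB/N for Ovol2 BT and CB6F1 for controls while also stating that littermates were used, and they give every array as female. By these labels strain and genotype cannot be told apart. The series sets out to find early differences, at an age when the skin of both genotypes still looked much alike.

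A hair grows from matrix cells at the base of the follicle. These cells sort into concentric layers: the shaft in the centre, the inner root sheath that moulds it, and a companion layer outside that. Shaft cells fill with hair keratins, which pair as type I and type II filaments, and with keratin-associated proteins (Krtap), small proteins rich in cysteine or in glycine and tyrosine that crosslink those filaments. Sheath cells use keratins of their own and trichohyalin, which is hardened by deimination and crosslinking. In mouse back skin the first follicles are still forming at this stage, and hair shafts appear only around birth.

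Levels below are log2(intensity + 16), and differences are Ovol2 BT minus control on that scale, with the standard error (SE) of the limma fit over 2 arrays a group. Ovol2 itself read 12.93 and 12.96 on the Ovol2 BT arrays, against 7.59 and 8.29 on the control arrays (difference 5.01, SE 0.27, adjusted p = 0.0253). The epidermal keratins Krt5, Krt14, Krt1 and Krt10 were all bright (mean levels from 12.91 to 14.06). All 4 were lower on both Ovol2 BT arrays than on both control arrays, as were 13.6% of all genes. The differences were -0.87 for Krt5 and -0.66 for Krt14, but only -0.08 for Krt1 and -0.08 for Krt10. Summed intensities of the 4 were 45916 and 45932 in Ovol2 BT and 57959 and 57293 in controls. Ovol2 BT replicate 2 stood apart: Pearson's r over the genes tested was 0.930 with Ovol2 BT replicate 1, against 0.983 between the control arrays (genes are not independent replicates). Against the mean of the other arrays, 893 genes tested were over 2-fold lower on this array and 78 over 2-fold higher. By the same measure each other array had 30 to 43 lower and 26 to 80 higher. Y-linked genes were far brighter on replicate 1 of each group (median levels 9.70 for Ovol2 BT and 9.42 for control) than on replicate 2 (4.72 for Ovol2 BT and 5.76 for control), which goes against the label of all arrays as female. Skeletal muscle and erythroid markers likewise differed between arrays of the same genotype. The summed intensity of 6 muscle markers was 33366 and 54190 on the Ovol2 BT arrays and 51966 and 33225 on the control arrays, and that of 4 erythroid markers (5 were listed) was 4725 and 16021 on the Ovol2 BT arrays and 3954 and 8961 on the control arrays. No marker was at 0, and the part of these markers in the results below was not tested.

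None of the hair shaft and root sheath genes passed the test. Of the 66, 42 had a mean level over the filter on dim genes (7.32, the 25th percentile of all genes) and were tested, and 0 of these had a limma adjusted p under 0.05, against 0.0268% of the 14953 genes tested (0.0201% higher and 0.00669% lower). At an unadjusted p under 0.05, 6 of the 42 were higher (background 2.49%) and 1 was lower (background 1.74%). In a fit without the filter, 13 of the 66 were higher (background 2.4%) and 1 was lower (background 1.7%) at that threshold. Most differences were small and positive. The median over the 66 was 0.21, against 0.03 over all genes, and 55 of the 66 were positive, against 55.1% of all genes. On both Ovol2 BT arrays 37 of the 66 lay above both control arrays (background 20.5%) and 3 lay below both (background 13.6%). These counts describe the 66, and no test of the 66 together against other genes was made. The count of calls depended on single arrays. When Ovol2 BT replicate 2 was left out, Padi3 and Krtap3-2 were called (2 of 42, background 0.716%), and when Ovol2 BT replicate 1 was left out, 7 were called (Foxn1, Padi3, Krt31, Krt32, Krtap3-2 and Krtap8-1 higher and Krtap13 lower), a share of 16.7% beside a background of 16.4%; a lone Ovol2 BT array is there assumed to vary like the controls.

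**Figure D1:**
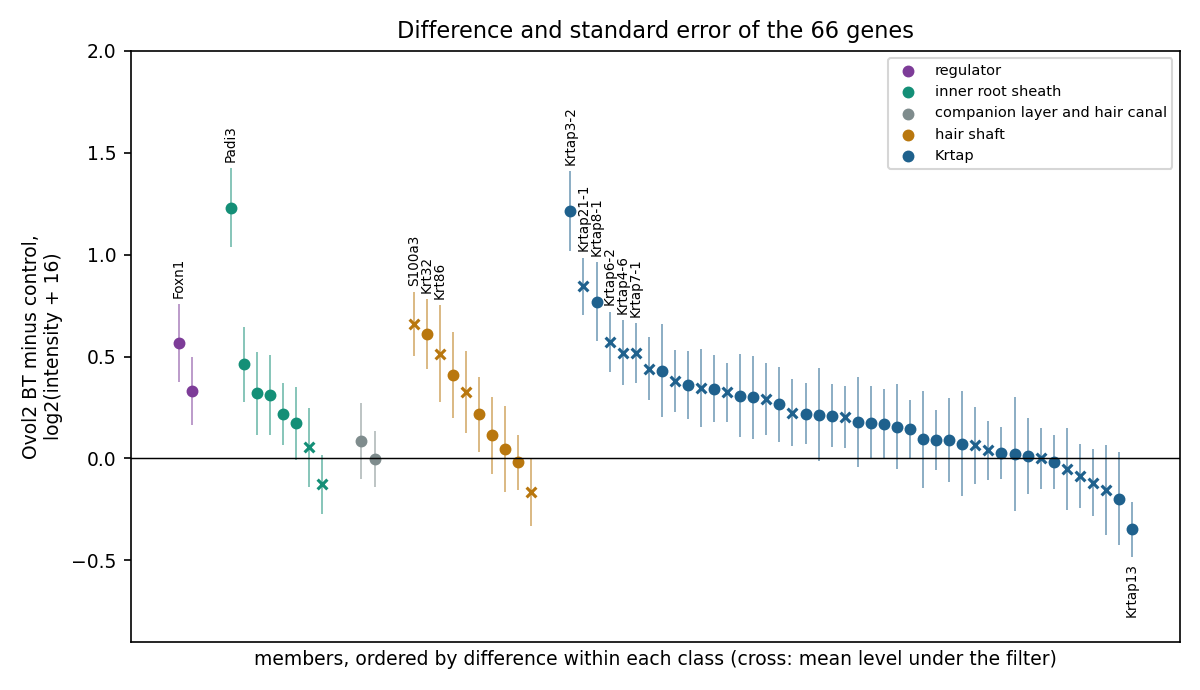
Ovol2 BT minus control difference (y axis, log2(intensity + 16) scale) of each of the 66 genes, ordered by size within 5 classes along the x axis. Bars are the SE of the limma fit with 2 arrays a group, and crosses are genes with a mean level under the filter. Padi3 (1.23) and Krtap3-2 (1.21) have the largest differences, and Krtap13 (-0.35) the lowest.

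Foxn1 and Hoxc13, the 2 transcription factors among the 66 genes, were both brighter on both Ovol2 BT arrays than on both control arrays. The 20 hair lineage regulators of the wider list described last were split, with 4 above both controls on both Ovol2 BT arrays (background 20.5%), 8 below (background 13.6%) and a median difference of -0.06. Foxn1, the factor missing in nude mice, whose hairs break off at the skin surface, read 9.64 and 9.87 on the Ovol2 BT arrays and 9.16 and 9.22 on the control arrays. Both Ovol2 BT values lay above both control values, by 0.57 on average (SE 0.19, limma adjusted p = 0.906). The difference ranged from 0.45 to 0.68 when each array was left out in turn. Hoxc13, a homeobox factor of the matrix, shaft and cuticle that acts on hair keratin genes, read 8.29 and 8.37 in Ovol2 BT and 7.89 and 8.11 in controls. The groups did not overlap here either, but the difference of 0.33 (SE 0.17) had the same adjusted p of 0.906. Neither factor passed over all genes tested.

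Among the inner root sheath genes, Padi3 differed most and the sheath keratins little. Padi3 is an enzyme that turns arginines of trichohyalin and S100a3 into citrulline, a step in the hardening of the sheath, the medulla and the cuticle. It read 8.83 and 9.20 on the Ovol2 BT arrays, against 7.76 and 7.81 on the control arrays, which corresponds to intensities of 440 and 571 against 200 and 209. The gap between the groups was wider than the gap between arrays within either. Its difference of 1.23 (SE 0.19, limma adjusted p = 0.423) was the largest of the 66, and it ranged from 1.05 to 1.41 when each array was left out in turn. The lower end came from leaving out Ovol2 BT replicate 2 and the upper end from leaving out Ovol2 BT replicate 1. Tchh, trichohyalin itself, read 7.42 and 7.59 in Ovol2 BT and 7.17 and 7.40 in controls. Its higher control array nearly reached the lower Ovol2 BT array, and the difference was 0.22 (SE 0.15, adjusted p = 0.906).

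The type II sheath keratins Krt71, Krt72 and Krt73 pair with the type I sheath keratins Krt25, Krt27 and Krt28. Krt72, found in the cuticle of the sheath, read 9.32 and 9.45 in Ovol2 BT and 8.86 and 8.98 in controls (difference 0.46, SE 0.18, limma adjusted p = 0.906). The groups were separate and each was tight. Krt71, which spans the layers of the sheath, read 8.27 and 8.70 in Ovol2 BT and 8.18 and 8.14 in controls (difference 0.32, SE 0.20). Most of this came from Ovol2 BT replicate 2, without which the difference was 0.11. Krt73, also a cuticle keratin, read 7.97 and 7.68 in Ovol2 BT and 7.78 and 7.53 in controls, so its groups overlapped (difference 0.17, SE 0.18, adjusted p = 0.907). Krt25 read 7.48 and 7.52 in Ovol2 BT and 7.44 and 6.93 in controls (difference 0.31, SE 0.20). Its control arrays lay further apart than the groups did, and the difference was 0.06 without control replicate 2. Krt27 (6.94 and 6.95 in Ovol2 BT, 7.01 and 7.14 in controls) and Krt28 (6.86 and 7.32 in Ovol2 BT, 7.02 and 7.04 in controls) were under the filter and differed by -0.13 (SE 0.14) and 0.05 (SE 0.20). In all 5 of the 8 inner root sheath genes lay above both control arrays on both Ovol2 BT arrays (background 20.5%), 1 (Krt27) lay below both (background 13.6%), and the median difference was 0.27, against 0.03 over all genes.

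Keratins of the layers next to the sheath had differences near 0, within the spread of the arrays. Krt75, the keratin of the companion layer, read 7.51 and 7.61 in Ovol2 BT and 7.53 and 7.59 in controls (difference 0.00, that is -0.0025, SE 0.14, limma adjusted p = 0.998). Krt79, which marks cells that open the hair canal and line the upper follicle, read 10.07 and 10.21 in Ovol2 BT and 10.13 and 9.98 in controls (difference 0.08, SE 0.19, adjusted p = 0.945). For Krt75 both controls lay between the Ovol2 BT arrays, and for Krt79 the arrays of the genotypes alternated.

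**Figure D2:**
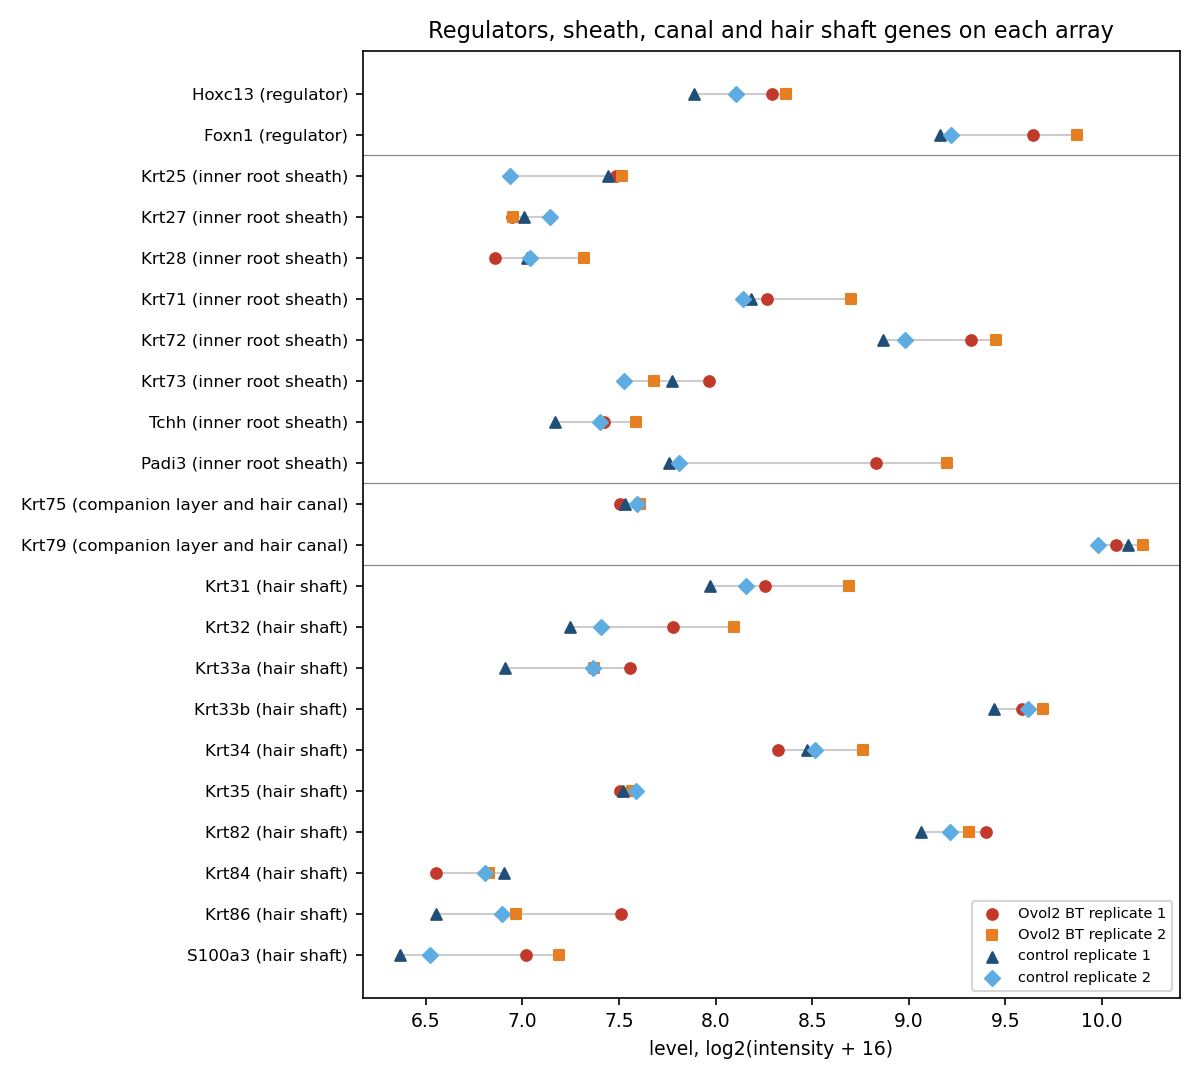
Level of the 22 genes other than Krtap on each of the 4 arrays (x axis, log2(intensity + 16)), with genes grouped by role down the page and a grey line spanning the 4 values. Padi3, Foxn1, Krt72, Krt32 and S100a3 have both Ovol2 BT arrays to the right of both control arrays, while the groups overlap for Krt75, Krt79, Krt34 and Krt35.

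Of the shaft genes, 2 tied to the hair cuticle, Krt32 and S100a3, had the widest gaps. Krt32, a type I keratin of the cuticle, read 7.78 and 8.09 in Ovol2 BT and 7.25 and 7.41 in controls. The groups were separate, with a difference of 0.61 (SE 0.17, limma adjusted p = 0.853). With each array left out, the difference ranged from 0.45 to 0.77. S100a3, a calcium-binding protein of the cuticle and a substrate of Padi3, read 7.02 and 7.19 in Ovol2 BT and 6.37 and 6.52 in controls. It was under the filter, and the fit without a filter gave 0.66 (SE 0.16, adjusted p = 0.844). Krt82, the type II cuticle keratin, differed less: it read 9.40 and 9.31 in Ovol2 BT and 9.06 and 9.22 in controls (difference 0.22, SE 0.19, adjusted p = 0.906).

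The keratins of the cortex and matrix, the bulk of the shaft, did not separate in one way. Krt31, a type I cortex keratin, read 8.25 and 8.69 in Ovol2 BT and 7.97 and 8.16 in controls (difference 0.41, SE 0.21, limma adjusted p = 0.906). The difference was 0.19 when Ovol2 BT replicate 2 was left out and 0.63 when Ovol2 BT replicate 1 was. Krt33b, another cortex keratin, read 9.59 and 9.69 in Ovol2 BT and 9.44 and 9.62 in controls (difference 0.11, SE 0.19, adjusted p = 0.936). Its near copy Krt33a, under the filter, read 7.56 and 7.37 in Ovol2 BT and 6.91 and 7.37 in controls. Its lower Ovol2 BT array and higher control array were level, and probes of such close paralogs may share signal. Krt34, likewise of the cortex, read 8.32 and 8.76 in Ovol2 BT and 8.47 and 8.51 in controls (difference 0.05, SE 0.21), and Krt35, among the first keratins made by matrix cells entering the shaft, read 7.50 and 7.57 in Ovol2 BT and 7.52 and 7.59 in controls (difference -0.02, SE 0.13, adjusted p = 0.982). The Ovol2 BT arrays lay on either side of both controls for Krt34, and the arrays of the genotypes alternated for Krt35. Of the remaining type II keratins, named after their values were seen, Krt86 of the cortex differed by 0.51 (SE 0.24) and Krt84, best known from the tongue, by -0.17 (SE 0.16), both under the filter. Across the 10 shaft genes the median difference was 0.27, against 0.03 over all genes, and 6 had both Ovol2 BT arrays above both control arrays (background 20.5%). In whole skin, a change in the number of cells of a type and a change in RNA per cell cannot be told apart.

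The Krtap genes showed a few wide gaps over a broad, shallow shift. Of the 44, 26 were tested and 0 passed. The median difference over the 44 was 0.19, with 37 positive, and 24 had both Ovol2 BT arrays above both controls (54.5%, background 20.5%) while 2 (Krtap13 and Krtap24-1) had both below (4.55%, background 13.6%). The median leaned on single arrays. It was 0.09 when Ovol2 BT replicate 1 was left out and 0.33 when Ovol2 BT replicate 2 was, while leaving out control replicate 1 gave 0.13 and control replicate 2 gave 0.29. Near-identical copies within these families may share probe signal.

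Krtap3-2, a high-sulfur protein, had the widest gap among the Krtap genes. It read 10.49 and 10.27 in Ovol2 BT and 9.25 and 9.08 in controls, or intensities of 1419 and 1221 against 591 and 527. The difference was 1.21 (SE 0.20, limma adjusted p = 0.432) and lay between 1.11 and 1.32 with each array left out. Its neighbours Krtap3-1 and Krtap3-3, of the same family, differed by 0.21 (SE 0.23) and -0.15 (SE 0.22), with overlapping groups. Krtap21-1 read 7.18 and 7.18 in Ovol2 BT and 6.32 and 6.35 in controls. It was under the filter, with a difference of 0.85 (SE 0.14, adjusted p = 0.494 in the fit without a filter). The 2 arrays of each genotype nearly coincided for this gene. Krtap8-1 read 8.73 and 8.61 in Ovol2 BT and 7.72 and 8.08 in controls (difference 0.77, SE 0.19, adjusted p = 0.769), again with separate groups. Its difference ranged from 0.59 to 0.95 with each array left out in turn. Krtap6-2 (7.23 and 7.28 in Ovol2 BT, 6.59 and 6.77 in controls), Krtap7-1 (7.54 and 7.49 in Ovol2 BT, 6.92 and 7.08 in controls) and Krtap4-6 (7.25 and 7.03 in Ovol2 BT, 6.55 and 6.70 in controls) also had separate groups, all under the filter, with differences of 0.57 (SE 0.15), 0.52 (SE 0.15) and 0.52 (SE 0.16).

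Of the 6 Krtap probe sets with the highest means, Krtap13 was lower on both Ovol2 BT arrays, Krtap4-7 was higher on both, and the other 4 overlapped. Probe sets differ in affinity, so a high mean does not show that the RNA was abundant. Krtap13 read 13.47 and 13.09 in Ovol2 BT and 13.54 and 13.71 in controls. Its difference was -0.35 (SE 0.14, limma adjusted p = 0.906), and both Ovol2 BT arrays lay below both controls. Leaving out Ovol2 BT replicate 1 gave -0.54 and leaving out Ovol2 BT replicate 2 gave -0.16. Krtap17-1 read 12.14 and 11.73 in Ovol2 BT and 11.71 and 11.82 in controls (difference 0.17, SE 0.17). Krtap9-3 read 11.95 and 11.78 in Ovol2 BT and 11.80 and 11.87 in controls (difference 0.03, SE 0.13). The groups overlapped for both genes. Krtap5-1 (10.69 and 10.08 in Ovol2 BT, 10.16 and 10.57 in controls) and Krtap19-4 (10.34 and 10.02 in Ovol2 BT, 10.00 and 10.18 in controls) overlapped too, with differences of 0.02 (SE 0.28) and 0.09 (SE 0.21). Krtap4-7 read 10.11 and 9.82 in Ovol2 BT and 9.60 and 9.73 in controls (difference 0.30, SE 0.20, adjusted p = 0.906), with the lower Ovol2 BT array just above the higher control.

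Grouped by the chemistry of the protein family, the difference was widest for the glycine- and tyrosine-rich genes, a grouping made with earlier results of these data known. The 13 high glycine-tyrosine genes (families 6, 7, 8, 19 and 21) had a median difference of 0.34, with 10 above both controls on both Ovol2 BT arrays and 0 below, where 20.5% of all genes lay above and 13.6% below. The 13 high-sulfur genes (families 1, 3, 11, 13, 14, 15, 24 and 26) had a median of 0.22, with 7 above and 2 below. The 15 genes placed here as ultrahigh-sulfur (families 4, 5, 9, 10, 12 and 17) had a median of 0.16, with 6 above and 0 below. The placing of families in classes was not checked against protein sequences. The 3 genes of families left unclassed (Krtap16-3, Krtap31-1 and Krtap31-2) had a median of 0.01, with 1 above. The classes also differed in brightness. Over the filter were 5 of the 13 high glycine-tyrosine, 7 of the 13 high-sulfur and 13 of the 15 ultrahigh-sulfur genes. In these tested genes alone the medians were 0.34, 0.27 and 0.14. The median over all Krtap genes under the filter was 0.26, and over those above it 0.17. No test of these differences between families was made, and the part of brightness in them was not tested.

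Krtap genes lie in clusters, and neighbours could be compared in the order of the RefSeq table. In the cluster from Krtap24-1 to Krtap11-1, the consecutive members Krtap21-1, Krtap6-2, Krtap8-1 and Krtap7-1 held the largest differences, from 0.52 to 0.85, and Krtap11-1 beyond them had 0.27 with overlapping groups. The other 16 members of that cluster lay between -0.35 and 0.44. In the cluster from Krtap3-3 to Krtap17-1, Krtap3-2 stood alone between neighbours with small differences. The 5 members of the Krtap5 cluster lay between -0.02 and 0.18, none of them with separate groups. The 3 members of the cluster with Krtap10 and Krtap12 genes lay between -0.20 and 0.21.

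**Figure D3:**
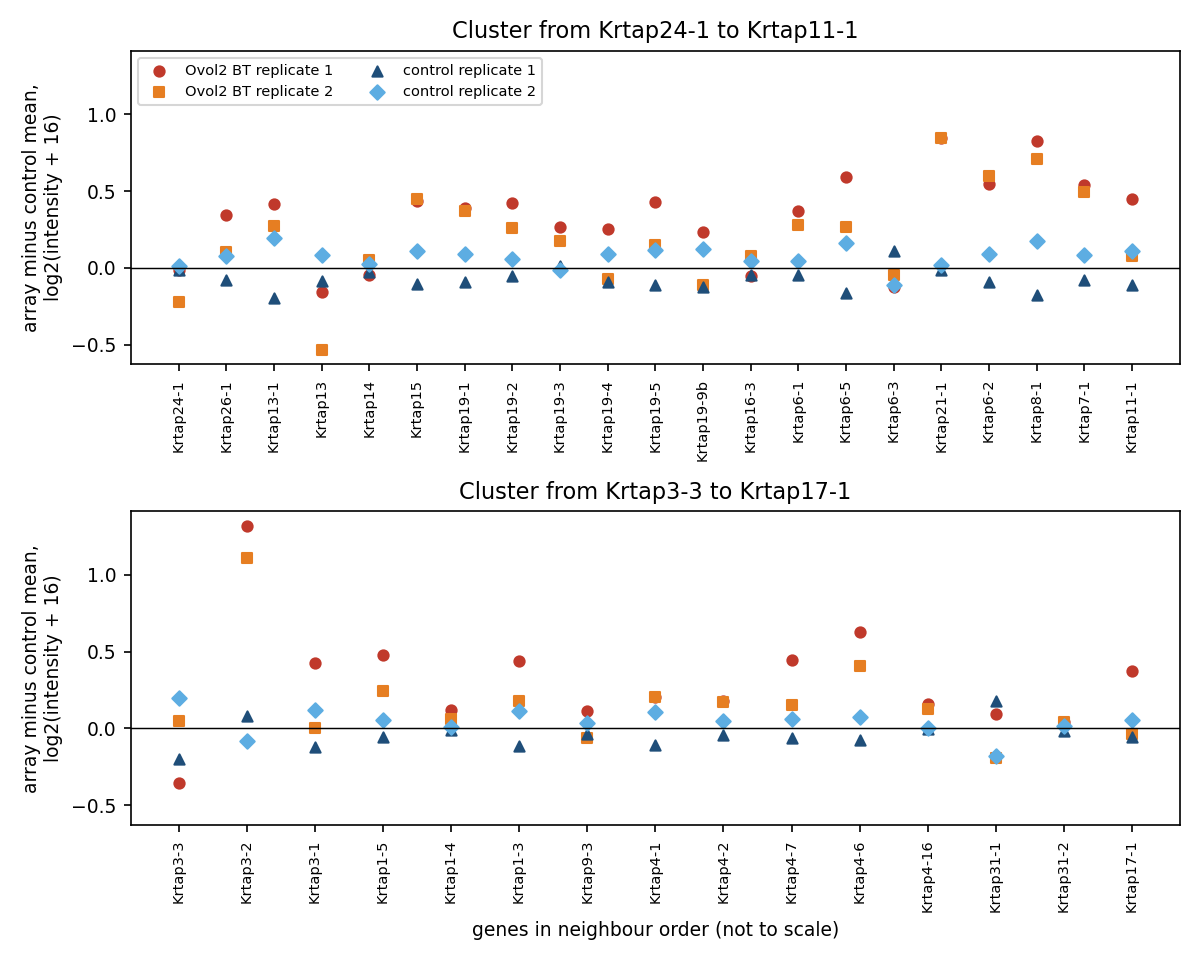
Level of each Krtap gene on each array minus the mean of the control arrays (y axis, log2(intensity + 16) scale), with genes in neighbour order along the x axis for the 2 largest clusters. Krtap21-1, Krtap6-2, Krtap8-1 and Krtap7-1 sit together with both Ovol2 BT arrays well above both controls, Krtap3-2 stands alone above 1, and Krtap13 lies below the controls.

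The promoters of these genes share sequence features that the naming rule did not use. RefSeq (GRCm38.p6) gave a start site for 58 of the 66, and the 250 bases before the first listed start were searched. The 4 printed here belong to the genes with the largest differences, Padi3 of the sheath and 3 Krtap genes. Capitals mark TATAAA, the TATA box that sets the start of many strongly regulated genes, on the sense strand, and TTTAT or TTAAT on either strand, the core of a described Hoxc13 site; ATAAA inside TATAAA is also the reverse complement of TTTAT, so these overlap.
Padi3 (chr4:140810649-140810898, minus strand): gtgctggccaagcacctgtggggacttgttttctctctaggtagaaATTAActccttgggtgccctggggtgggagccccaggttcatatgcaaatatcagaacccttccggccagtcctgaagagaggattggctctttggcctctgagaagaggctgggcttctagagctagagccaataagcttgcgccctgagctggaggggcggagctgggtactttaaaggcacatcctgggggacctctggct
Krtap3-2 (chr11:99556854-99557103, minus strand): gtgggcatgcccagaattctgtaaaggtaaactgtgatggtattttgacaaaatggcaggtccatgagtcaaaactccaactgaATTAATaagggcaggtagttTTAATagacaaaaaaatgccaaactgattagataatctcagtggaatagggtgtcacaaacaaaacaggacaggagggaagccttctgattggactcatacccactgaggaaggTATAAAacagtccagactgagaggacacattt
Krtap21-1 (chr16:89403775-89404024, minus strand): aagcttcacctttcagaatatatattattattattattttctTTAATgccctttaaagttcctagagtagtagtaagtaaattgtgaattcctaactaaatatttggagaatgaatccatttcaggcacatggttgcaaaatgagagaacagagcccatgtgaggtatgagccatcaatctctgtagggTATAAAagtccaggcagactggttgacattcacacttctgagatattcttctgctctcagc
Krtap8-1 (chr16:89487953-89488202, minus strand): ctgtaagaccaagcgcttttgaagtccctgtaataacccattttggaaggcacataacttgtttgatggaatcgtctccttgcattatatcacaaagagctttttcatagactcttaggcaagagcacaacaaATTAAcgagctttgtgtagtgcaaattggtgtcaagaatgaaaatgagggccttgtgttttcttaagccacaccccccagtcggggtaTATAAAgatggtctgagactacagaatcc

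TATAAA was found before 40 of the 58 starts (69%), in 31 of 40 Krtap promoters and 9 of 18 others, against 8.12% of 27025 promoters. In 27 of the 58 (46.6%) it began 25 to 35 bases before the start, where a TATA box works, against 1.96% of all promoters. Among the 4 printed, it began 32 bases before the start of Krtap3-2, 29 before Krtap8-1 and 61 before Krtap21-1, and was not in the Padi3 window. TTTAT or TTAAT outside any TATAAA was present in 47 of the 58 (81%), against 44.2% of all promoters. Letters so rich in A and T follow base composition, which was not matched. Many of these promoters belong to Krtap genes of the same family and cluster, so they are not independent of each other. GACGC, a core read by Foxn1, was in 5 of 58 (8.62%, against 22.6%) on either strand, and CCGTTA, a core of Ovol proteins, was in 0 of 58 (against 2.17%). These matches describe letters only. TATAAA stood both in promoters of genes with wide gaps, such as Krtap3-2, and in those with none, such as Krtap9-3.

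The shift of the Krtap genes was compared with that of olfactory receptor genes, a large family of mostly dim probe sets on these arrays, although some members are known to be made in skin. Of the 1027, 134 had a mean level over the filter, against 14953 of all 19938 genes. The 95th percentile of the family on each array served as a mark of dimness. By its definition most of the family lies under it (959 on every array, with 39 over it on every array). Against the control mean, the median Krtap difference was 0.33 on Ovol2 BT replicate 1 and 0.09 on Ovol2 BT replicate 2, while control replicate 2 exceeded control replicate 1 by 0.16. The 1027 olfactory receptor genes ran in the same order, at 0.14 on Ovol2 BT replicate 1 and -0.05 on Ovol2 BT replicate 2, with 0.11 between the controls. Of the 44 Krtap genes, 36 were lower on Ovol2 BT replicate 2 than on replicate 1 (24 of 26 over the filter and 12 of 18 under it). So were 751 of the 1027 olfactory receptors, and 10020 of all 19938 genes. The other 22 genes did not follow this order. Their medians were 0.23 and 0.28 on the 2 Ovol2 BT arrays, beside 0.09 between the controls, and 4 of 22 were lower on Ovol2 BT replicate 2. Both genotypes held dim members: 32 of the 66 stayed under the 95th percentile of the olfactory receptors on every array and 26 stayed over it on every array. Probe sets differ in affinity, so this does not show that a gene was silent. All genes together did not run in the order of the Krtap genes. Their medians were 0.02 on Ovol2 BT replicate 1 and 0.04 on Ovol2 BT replicate 2, with 0.02 between the controls. Both Ovol2 BT arrays lay above both controls for 20.2% of the olfactory receptors and 54.5% of the Krtap genes (background 20.5%). Both lay below for 9.06% and 4.55% (background 13.6%). The median Ovol2 BT minus control difference was 0.05 for the olfactory receptors and 0.19 for the Krtap genes. With arrays centred on the olfactory receptors, the Krtap median was 0.17. The part of the order shared with olfactory receptors in the Krtap values was not tested.

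**Figure D4:**
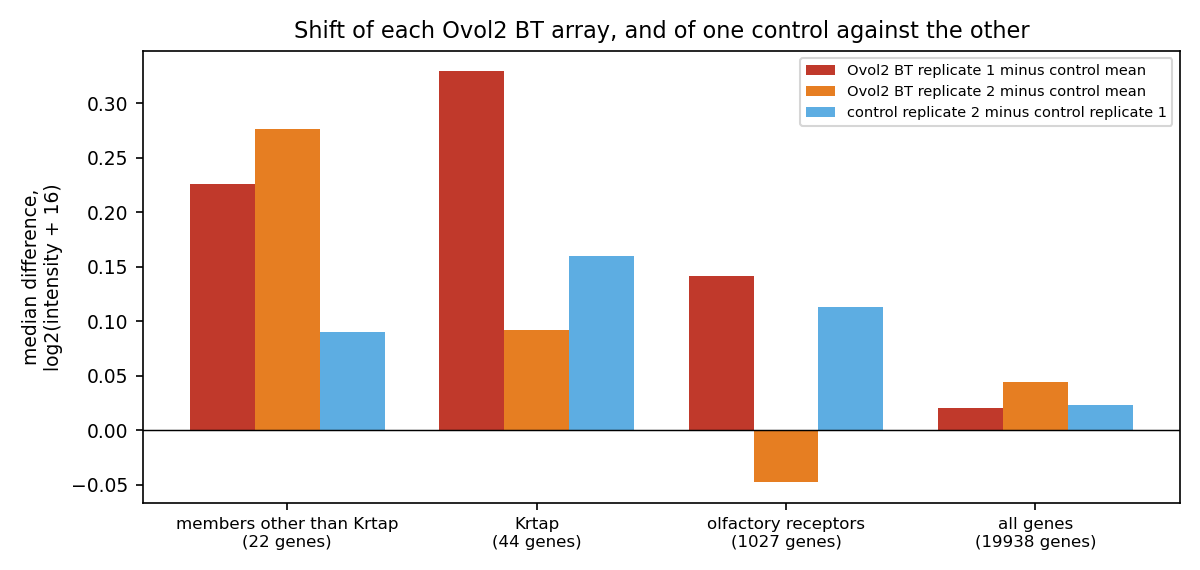
Median difference (y axis, log2(intensity + 16) scale) between an Ovol2 BT array and the mean of the controls, and of control replicate 2 against control replicate 1, for 4 sets of genes. The 44 Krtap genes (0.33, 0.09 and 0.16) and the 1027 olfactory receptors (0.14, -0.05 and 0.11) run in the same order. The other 22 genes (0.23, 0.28 and 0.09) and all genes (0.02, 0.04 and 0.02) do not.

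The wider hair programme, a list of regulators and partners in hardening, went both ways. Of 38 listed genes 37 were found and 30 tested, and 0 passed in limma. At an unadjusted p under 0.05, 6 were higher (20% of the 30, background 2.49%) and 4 were lower (background 1.74%), and the median over the 37 was 0.07. Among the 6 with the smallest p, Krt17, a keratin of the outer root sheath and of stressed epidermis, read 13.07 and 13.19 in Ovol2 BT and 12.64 and 12.51 in controls (difference 0.56, SE 0.09, adjusted p = 0.432). Hr, the hairless corepressor of the hair cycle, read 10.85 and 10.94 in Ovol2 BT and 9.89 and 9.98 in controls (difference 0.95, SE 0.17, adjusted p = 0.484). Bmp2, a ligand that restrains follicle growth and favours differentiation, read 10.82 and 10.78 in Ovol2 BT and 9.98 and 9.77 in controls (difference 0.93, SE 0.18, adjusted p = 0.564). All 3 had groups far apart beside their spread.

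Lhx2, a homeobox factor of the early follicle bud, went the other way, with 9.35 and 9.63 in Ovol2 BT and 10.55 and 10.50 in controls (difference -1.03, SE 0.20, limma adjusted p = 0.498). Krt80, an epithelial keratin (12.20 and 12.27 in Ovol2 BT, 11.79 and 11.66 in controls), and Sox9, a factor of the outer root sheath and follicle stem cells (11.13 and 11.20 in Ovol2 BT, 10.52 and 10.69 in controls), were higher by 0.51 (SE 0.12) and 0.56 (SE 0.16). Leaving out Ovol2 BT replicate 2 gave 4 calls (Hr higher, and Lef1, Lhx2 and Tgm3 lower), beside a background of 0.716%. Leaving out Ovol2 BT replicate 1 gave 8 (Bmp2, Hr, Sox9, Krt17 and Krt80 higher, and Lhx2, Bmpr1a and Lpar6 lower), beside a background of 16.4%. Bmpr1a (11.15 and 9.36 in Ovol2 BT, 11.12 and 10.93 in controls) and Lpar6 (10.78 and 9.81 in Ovol2 BT, 10.58 and 10.83 in controls) were low on Ovol2 BT replicate 2 alone, and their groups overlapped. The 5 markers of follicle epithelium include Lhx2, Sox9 and Krt17 themselves and went both ways. Lhx2, Shh and Edar had both Ovol2 BT arrays below both controls (background 13.6%), and Sox9 and Krt17 had both above (background 20.5%). Their summed intensity, in which the bright Krt17 weighs most, was 12196 and 13567 in Ovol2 BT and 10784 and 10446 in controls, with no marker at 0. Their part in the differences of the shaft and sheath genes was not tested.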

How the data were processed

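Total RNA of embryonic skin was labelled after random priming and hybridised to whole-transcript arrays, per the labels' protocols. The authors deposited linear intensity values, made with Affymetrix Expression Console 1.1.1 and PLIER 2.0 per the submitters' processing notes; neither the normalisation between arrays nor the genome build is given in the sources used here. Of 35557 probe sets, 21789 had 1 gene symbol, 1621 several and 12147 no listed gene; the last 2 kinds stayed out of the tests. Symbols were updated through RefSeq (GRCm38.p6), which matched 21698.

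The scale was log2(intensity + 16), and adding 16 makes folds of dim genes smaller. The brightest probe set of each gene was kept, and genes with a mean under the 25th percentile were left out. limma 3.58.1 in R 4.3.3 fitted Ovol2 BT minus control over 4 arrays (lmFit, eBayes with an intensity trend, two-sided). Its p-values were Benjamini-Hochberg adjusted over all 14953 genes tested. Steps were tested on simulated data in 10 runs, with 200 of 14953 genes changed. At a log2 fold of 1, 12.8% of the changed genes were recovered, and at a log2 fold of 2, 63.2%. At a recovery this low, a gene without a call may still differ. False calls averaged 4.3 a run, beside 4 genes called in the data themselves. An exact permutation test of 2 against 2 arrays has a smallest p of 0.333 and was not run. The number of arrays limits the precision. The members and lists were chosen with earlier results of these data known. Genes named one by one are the regulators, Tchh, Padi3, S100a3, the keratins over the filter and the 3 brightest under it, the 6 brightest Krtap genes and the 6 with the largest difference, and the 6 genes of the wider programme with the smallest p. Alternatives were other normalisations, offsets, filters, probe set summaries, an untrended variance, the replicate block and leaving out each array. The replicate numbers are shared by the groups but nothing in the labels ties them, and the deviations of same-numbered arrays correlated at -0.17 across genes.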

Additional observations from a re-analysis of the deposited data

Results flagged for a closer look

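Probe sets whose annotation names several genes stayed out of the comparisons above. Of 15 such sets that name a Krtap gene, 7 had both Ovol2 BT arrays above both control arrays (20.5% of all genes did), 4 of them for the same genes, with no test made. The set shared by Krtap6-1, Krtap6-5 and 3 further genes read 10.60 and 10.49 in Ovol2 BT and 9.91 and 10.21 in controls (difference 0.48 on the log2(intensity + 16) scale). The 4 sets shared by Krtap2-4 and 2 further genes differed by 0.31, 0.24, 0.32 and 0.32, the last 2 with the same values on every array. A set shared by Krtap4-13 and 2 further genes differed by 0.27, and a set shared by Krtap5-2, Krtap5-4, Krtap5-5 and 1 further gene by 0.30.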

How the results depend on the processing

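The count of hair shaft and root sheath genes changed was 0 under all alternatives that kept the 4 arrays, and ranged from 0 to 7 when each array was left out; 7 was reached without Ovol2 BT replicate 1. The count for the wider hair programme was likewise 0 with 4 arrays and ranged from 0 to 8. Over all genes tested, 4 changed as reported, 10 with median centring, 0 with eBayes without a trend (601 at an unadjusted p under 0.05), 9 with the replicate number as a block, 13 with arrays centred on olfactory receptor genes, 0 with cyclic loess (673 at an unadjusted p under 0.05), and from 4 to 2453 with each array left out. Centring on olfactory receptors, cyclic loess and the crossed replicate numbers (5 calls) were chosen after seeing the data. The replicate block changed no call among the hair genes. The median difference of the 66 genes was positive throughout, from 0.14 to 0.31 with an array left out, and that of the Krtap genes from 0.09 (0.092) to 0.33. Near-zero differences changed sign: Krt75 was 0.01 (0.0061) with quantile normalisation and 0.03 (0.0288) with median centring, Krt35 was 0.01 (0.0126) with median centring, and Krtap5-1 was 0.00 (-0.0022) with olfactory centring. With each array left out, Krt75 ranged from -0.0545 to 0.0494, Krt34 from -0.17 to 0.27, Krt35 from -0.0504 to 0.0131, Krt28 from -0.18 to 0.28, Krtap17-1 from -0.0389 to 0.38, Krtap9-3 from -0.06 to 0.11, Krtap5-1 from -0.28 to 0.32 and Krtap19-4 from -0.07 to 0.25; the cause was not tested. Signal over background is unknown, so limits for dim genes could not be set.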
